A study of Mus musculus with 4 samples.

Results

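The osteoblast transcription factors examined here are Runx1, Runx2, Runx3, Sp7, Dlx3, Dlx5, Msx1, Msx2 and Twist1. They were taken by gene symbol from a mouse gene count table, and 9 of its 54532 genes carried these names, 1 row for each. The table holds poly(A) RNA sequencing of C3H10T1/2 cells, an established mouse mesenchymal stem cell (MSC) line from C3H embryos that can be turned into bone, cartilage and fat cells. By the labels, every culture received an siRNA for 48 h, either a control siRNA (the groups control and OB) or DNMT1 siRNA (siDNMT1 and siDNMT1_OB), DNMT1 being the enzyme that copies DNA methylation after replication. The groups OB and siDNMT1_OB were afterwards kept for 3 days in osteoblast (OB) induction medium, which contained L-ascorbic acid at 50 µM, β-glycerophosphate at 10 mM and dexamethasone at 0.001 µM, whereas control and siDNMT1 received no induction. There was 1 library for each of the 4 groups. Differences therefore have no replicate check, and no p-value is given. Where 4 values follow one another without names, they stand in the order control, siDNMT1, OB and siDNMT1_OB.

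These proteins stand at the head of the bone-forming program. RUNX2, bound to its partner CBFB, commits mesenchymal cells to the osteoblast lineage, and SP7 (osterix) acts after it to make mature osteoblasts. RUNX1 and RUNX3 share the same DNA-binding Runt domain and are best known from blood, nerve and cartilage cells. DLX3, DLX5, MSX1 and MSX2 are homeodomain proteins that answer to BMP signals in the skeleton and skull, and TWIST1 is a basic helix-loop-helix protein of mesenchymal progenitors that can bind RUNX2 and hold its activity back.

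The libraries held between 22296046 and 27367792 gene counts. Levels are given as CPM (a gene's counts relative to its library total, put on a common scale with TMM, a trimmed mean of the ratios between libraries), with exact 95% intervals that cover counting error only and not the spread between dishes of cells. Reads had no molecular identifiers. As a check of the labels, Dnmt1 had 265, 132, 85.4 and 93.1 CPM. Dnmt1 in the library labelled siDNMT1_OB was therefore not lower than in OB (log2 fold change 0.13, interval 0.04 to 0.21), so the labels of the induced pair are not borne out by the target. This bears on every direction read from either induced library. All 10 fibroblast or mesenchymal markers were expressed, with a summed level of 34960 to 42160 CPM. Of the 10 blood markers 1 passed the expression filter (Cd68), and the list summed to 2.32 to 3.32 CPM, with Spi1 and Adgre1 at 0 counts in every library and Ptprc at 2, 0, 2 and 2. Of the classical osteoblast products, Alpl (alkaline phosphatase) had 0, 1, 2 and 0 counts, and Bglap (osteocalcin) had 2, 1, 1 and 3. Both were at or under the floor of 3 counts used here in all 4 libraries, the induced ones included. Other bone products were not all this low. Ibsp had 1, 3, 6 and 17 counts, Spp1 had 548, 206, 187 and 271 CPM, and Col1a1 had 9106 to 10970 CPM.

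Because the distal promoters of the RUNX genes are known to hold binding sites for the RUNX proteins themselves, their sequences were compared first. The RefSeq promoter table (GRCm38.p6, 250 bases before to 50 after each start) had entries for 6 of the 9 factors, in 8 windows, with a distal and a proximal start for Runx1 and Runx3 and 1 start each for Runx2, Msx1, Msx2 and Twist1. Sp7, Dlx3 and Dlx5 had none. The longest stretch common to the distal windows of Runx1 and Runx3 and the window of Runx2 was 18 bases long. It is shown in capitals within 30 bases, read 5′ to 3′ along each gene.
Runx1, chr16:92826025-92826054, minus strand: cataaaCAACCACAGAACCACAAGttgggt
Runx2, chr17:44814583-44814612, minus strand: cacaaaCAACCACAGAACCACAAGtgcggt
Runx3, chr4:135120503-135120532, plus strand: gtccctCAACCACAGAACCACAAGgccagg

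The shared stretch lies at positions 27 to 44 of the transcript of Runx1, at 22 to 39 of that of Runx2, and at −136 to −119 before the start of Runx3. It was found in 4 of the 32851 windows (0.0122%), the remaining one being that of Gm16225, which overlaps the window of Runx3 on the opposite strand. The stretch was chosen as common to the RUNX windows, so this share is not an independent measure of how rare it is. It contains 2 matches to a RUNX motif, searched as TGTGGT or TGCGGT on both strands. The whole 300-base windows held 2 matches in Runx1 (distal), 4 in Runx2 and 2 in Runx3 (distal), and 0 in the other 5 windows. At least 1 match was present in 22.4% of all windows of this length and at least 2 in 2.86%. A match describes the letters only. The counts combine all starts of a gene, so use of the distal and the proximal start could not be told apart.

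CpG sites, the substrate of DNMT1, were spread unevenly over the same windows. Runx1, the only expressed factor past 2-fold in any comparison made here, is shown at both starts with CpG in capitals, each covering the 250 bases before the start.
Runx1 distal, chr16:92826075-92826324, minus strand: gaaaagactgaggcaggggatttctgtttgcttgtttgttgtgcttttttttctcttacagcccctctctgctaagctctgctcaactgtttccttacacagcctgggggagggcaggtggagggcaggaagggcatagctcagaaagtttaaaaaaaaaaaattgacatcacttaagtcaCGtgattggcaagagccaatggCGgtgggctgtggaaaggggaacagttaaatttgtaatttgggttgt
Runx1 proximal, chr16:92697330-92697579, minus strand: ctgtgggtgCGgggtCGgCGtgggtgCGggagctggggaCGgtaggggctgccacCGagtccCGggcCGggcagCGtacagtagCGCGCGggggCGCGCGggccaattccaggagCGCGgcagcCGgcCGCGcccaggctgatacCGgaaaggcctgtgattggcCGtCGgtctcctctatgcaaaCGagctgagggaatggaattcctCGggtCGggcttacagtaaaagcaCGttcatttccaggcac

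The distal stretch holds 2 CpG and the proximal stretch 27. Over the full 300 bases the distal windows held 2 CpG in Runx1 and 8 in Runx3, and the window of Runx2 held 2, around or below the median of 7 over all windows. The proximal windows held 35 in Runx1 and 45 in Runx3, and Msx1, Twist1 and Msx2 held 29, 27 and 22, which is more than 93.1%, 98.1%, 87.1%, 84.5% and 76.9% of all windows in the same order. Methylation at these sites was not analysed here.

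The levels of the factors were then compared within each library, per kb of exon, since longer transcripts give more counts. In control, Twist1 was highest (interval 25.5 to 28.6 CPM per kb), followed by Runx2 (8.55), Dlx5 (7.84), Runx3 (5.75), Msx1 (2.99), Runx1 (1.93) and Msx2 (1.09). The intervals of Runx2 (8.18 to 8.93) and Dlx5 (7.15 to 8.57) overlapped, and those of the other neighbours did not. Twist1 was thus above 85.2% of the 13233 genes that passed the expression filter (a mean of at least 1 CPM), Runx2 above 57.9% and Msx2 above 15.2%. The table's exon length merges all transcripts of a gene (12025 bases for Runx1 and 1628 for Twist1), which lowers the value of genes with many alternative exons.

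The order shifted in the other libraries. In siDNMT1, the intervals of Runx2 (10.4 to 11.3 CPM per kb) and Dlx5 (10.1 to 11.8) overlapped again, and Msx1 (1.83) came below Runx1 (2.12) with intervals that also overlapped. In OB, Runx2 (8.23) lay above Dlx5 (6.10) without overlap, and Runx1 (0.849) took the lowest place among the 7 expressed factors, under Msx2 (1.15), although the top of its interval (0.966) reached past the bottom of that of Msx2 (0.916). In the library labelled siDNMT1_OB the order was Twist1 (24.5), Runx2 (9.84), Dlx5 (7.56), Runx3 (3.17), Msx1 (2.16), Runx1 (1.76) and Msx2 (1.00), where only Msx1 and Runx1 among neighbours had overlapping intervals.

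Sp7 and Dlx3 did not pass the expression filter. Sp7 (ENSMUSG00000060284, chromosome 15, 102356606 to 102367182), which in mouse is required for osteoblasts to form at all, had 5, 1, 8 and 4 counts. These equal 0.184, 0.0390, 0.354 and 0.149 CPM, with intervals that overlapped between all libraries. The log2 fold change of OB against control was 0.72 with an interval of −0.85 to 2.90, so a difference in Sp7 was not detectable at this depth. Dlx3 (ENSMUSG00000001510, chromosome 11, 95120119 to 95125296), a homeodomain factor of skin, tooth and bone, had 2 counts in siDNMT1 and 0 in each of the others, where the floor of 3 counts equals 0.111 CPM in control, 0.133 in OB and 0.112 in the library labelled siDNMT1_OB and the exact intervals reach 0.136, 0.163 and 0.138. The other 7 factors passed the filter.

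**Figure D1:**
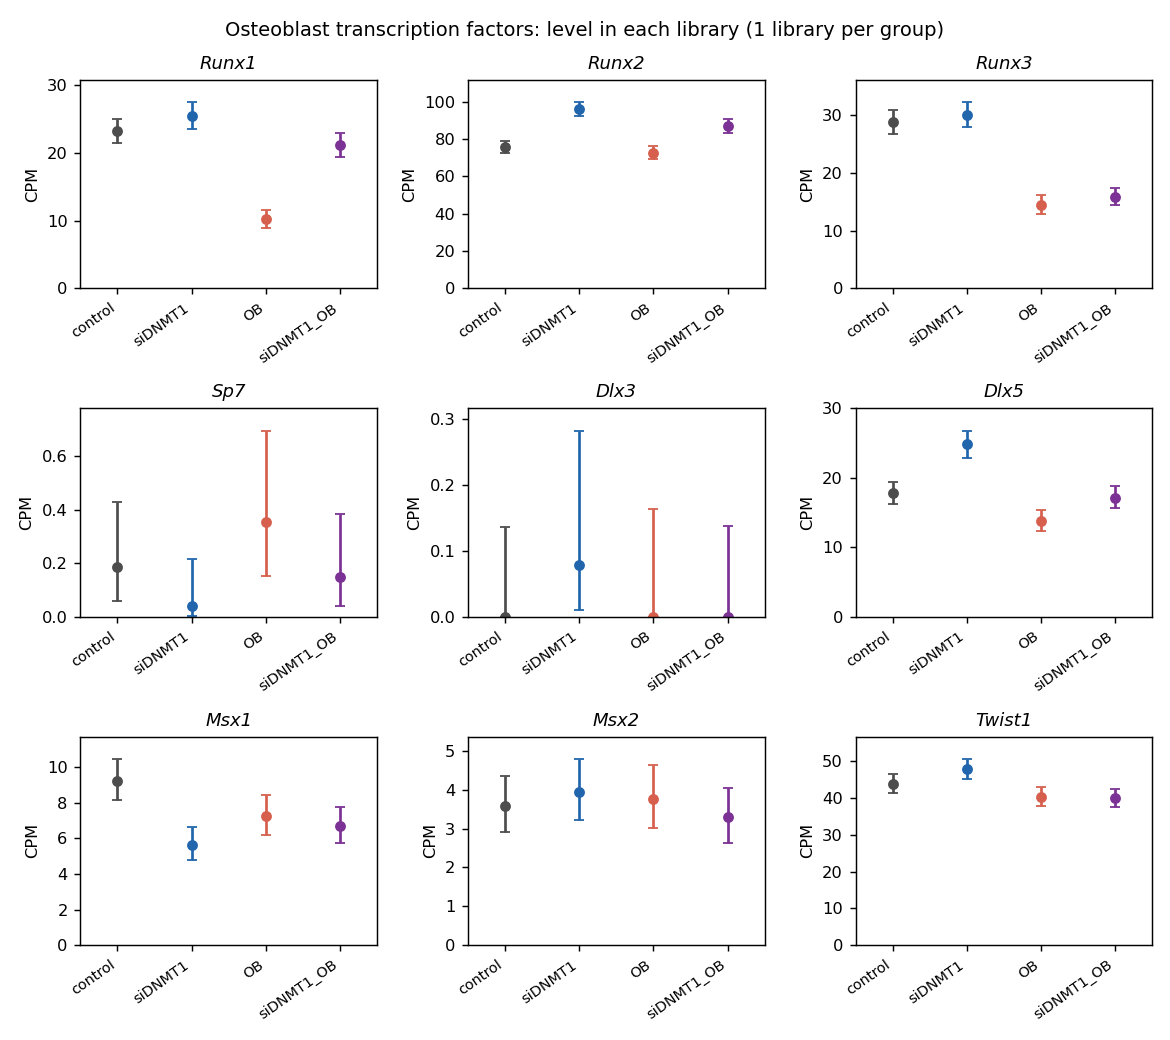
Level of each of the 9 factors (vertical axes, CPM, linear from 0, scaled per panel) in the 4 libraries (1 point per group, bars are exact 95% counting intervals). Runx1 stands low in OB alone, with 10.2 CPM against 21.2 to 25.5 elsewhere, Runx3 is low in both induced libraries, and Sp7 and Dlx3 stay under 0.36 CPM.

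Among the RUNX genes, Runx2 (ENSMUSG00000039153, chromosome 17, 44495987 to 44814797, minus strand) was the most abundant. Its counts were 2049, 2459, 1644 and 2327, or 75.5, 96.0, 72.7 and 87.0 CPM. siDNMT1 and the library labelled siDNMT1_OB lay above control and OB, with no overlap of the counting intervals between these sides. The log2 fold change was 0.35 (interval 0.26 to 0.43) for siDNMT1 against control and 0.26 (0.17 to 0.35) for the library labelled siDNMT1_OB against OB, in each case well under 2-fold. For OB against control Runx2 stood at −0.06 (−0.15 to 0.04), and for the library labelled siDNMT1_OB against siDNMT1 at −0.14 (−0.22 to −0.06).

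Runx1 (ENSMUSG00000022952, chromosome 16, 92601466 to 92826149, minus strand) behaved differently. It gave 629, 653, 231 and 566 counts, equal to 23.2, 25.5, 10.2 and 21.2 CPM. OB alone was low, and the interval of OB (8.94 to 11.6 CPM) met none of the others. The log2 fold change of OB against control was −1.18 (−1.41 to −0.96), past 2-fold, and that of the library labelled siDNMT1_OB against OB was 1.04 (0.83 to 1.28), also past 2-fold. Both values rest on the same OB library. The value was 0.14 (−0.02 to 0.30) for siDNMT1 against control and −0.27 (−0.43 to −0.10) for the library labelled siDNMT1_OB against siDNMT1.

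Runx3 (ENSMUSG00000070691, chromosome 4, 135120652 to 135177990, plus strand) was lower in both induced libraries. Counts of 780, 771, 327 and 424 gave 28.8, 30.1, 14.5 and 15.8 CPM. The intervals of the uninduced libraries did not overlap with those of the induced ones. The log2 fold change was −0.99 (−1.18 to −0.80) for OB against control and −0.92 (−1.10 to −0.75) for the library labelled siDNMT1_OB against siDNMT1, both just short of 2-fold. It was 0.07 (−0.08 to 0.21) for siDNMT1 against control and 0.13 (−0.08 to 0.34) for the library labelled siDNMT1_OB against OB, both within counting error.

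From these values the makeup of RUNX mRNA per exon length differed between libraries. Runx2 made up 52.7%, 57.2%, 68.8% and 66.6% of it. The share of Runx3 went from 35.4% and 31.7% in the uninduced libraries to 24.2% and 21.5% in the induced ones. Runx1 held 11.9%, 11.2%, 7.10% and 11.9%. Such ratios within a library do not depend on the scaling between libraries. Runx2 exceeded Runx1 by 4.43 times (4.05 to 4.86) in control and 5.12 times (4.70 to 5.60) under siDNMT1. The excess was 9.68 times (8.43 to 11.2) in OB and 5.59 times (5.10 to 6.14) in the library labelled siDNMT1_OB. The interval of OB was highest and met none of the others. Those of control and the library labelled siDNMT1_OB did not overlap either. The other pairs set other libraries apart. Runx3 exceeded Runx1 by 2.98, 2.84, 3.40 and 1.80 times, and the interval of the last (1.58 to 2.05) met none of the others. Runx2 exceeded Runx3 by 1.49, 1.81, 2.85 and 3.11 times, more in both induced libraries. The sum of the RUNX genes was 16.2, 19.0, 12.0 and 14.8 CPM per kb.

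**Figure D2:**
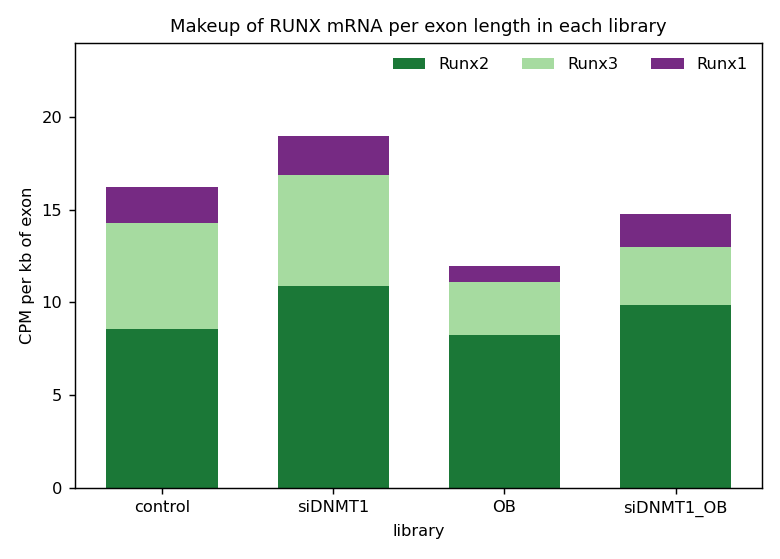
Stacked bars of Runx2, Runx3 and Runx1 (vertical axis, CPM per kb of exon, from 0) in each of the 4 libraries, with no error bars. The bars total 16.2, 19.0, 12.0 and 14.8, and the Runx2 segment is the largest in each.

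The Runx genes overlap other annotated genes, and the use of strand in counting was not stated. Runx2os1 shares 519 exon bases with Runx2 on the opposite strand and had 28, 9, 20 and 15 counts. Gm26626 shares 106 exon bases with Runx1 and had 8, 5, 0 and 2. Supt3, on the opposite strand and with 323 to 430 counts, overlaps the span of Runx2 but shares 0 exon bases with it. Reads of such partners cannot be told apart from those of the factor where exons are shared. The counts of the partners with shared exons were small beside those of Runx2 and Runx1. This does not bound the effect, because how reads in shared exons were assigned was not stated.

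The homeodomain factors were examined next. Dlx5 (ENSMUSG00000029755, chromosome 6, 6877805 to 6882085), an activator of Runx2 and Sp7 downstream of BMP signals, had 481, 635, 312 and 458 counts, or 17.7, 24.8, 13.8 and 17.1 CPM. It was highest in siDNMT1 and lowest in OB, neither of which overlapped another library, while control and the library labelled siDNMT1_OB overlapped. Its log2 fold change was 0.48 (0.31 to 0.66) for siDNMT1 against control and 0.31 (0.10 to 0.52) for the library labelled siDNMT1_OB against OB. For OB against control it was −0.36 (−0.57 to −0.15), and for the library labelled siDNMT1_OB against siDNMT1 −0.53 (−0.71 to −0.36).

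Msx1 (ENSMUSG00000048450, chromosome 5, 37820485 to 37824583), which keeps craniofacial progenitors undifferentiated, went the other way in uninduced cells. It had 251, 145, 164 and 179 counts, or 9.25, 5.66, 7.25 and 6.69 CPM. Control was highest, and its interval (8.14 to 10.5 CPM) met only that of OB (6.18 to 8.45), at the edge. The log2 fold change of siDNMT1 against control was −0.70 (−1.01 to −0.41), and 3.14% of the genes tested lay below it. For the library labelled siDNMT1_OB against OB it was −0.12 (−0.43 to 0.20).

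Msx2 (ENSMUSG00000021469, chromosome 13, 53466884 to 53473074), a BMP target in skull bone, had 97, 101, 85 and 88 counts, or 3.58, 3.94, 3.76 and 3.29 CPM, and all 4 intervals overlapped. Its log2 fold changes lay between −0.26 and 0.14, each within counting error. Twist1 (ENSMUSG00000035799, chromosome 12, 33957671 to 33959829) varied little. It had 1191, 1225, 910 and 1067 counts, or 43.9, 47.8, 40.2 and 39.9 CPM. The intervals of control, OB and the library labelled siDNMT1_OB overlapped, and that of siDNMT1 (45.2 to 50.6) met only that of control (41.5 to 46.5). The log2 fold change of Twist1 was 0.12 (0.01 to 0.24) for siDNMT1 against control and −0.26 (−0.38 to −0.14) for the library labelled siDNMT1_OB against siDNMT1. For OB against control it was −0.13 (−0.25 to −0.0002), and for the library labelled siDNMT1_OB against OB −0.01 (−0.14 to 0.12).

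The comparisons were then read over the 7 expressed factors and set beside all genes tested. With DNMT1 siRNA in uninduced cells, 0 of 7 passed 2-fold, against 1.97% higher, 1.37% lower and 3.34% in either direction among all 13233 genes. The median log2 fold change was 0.14 for the factors and −0.001 for all genes, and the factors ran from −0.70 (Msx1) to 0.48 (Dlx5). Counting intervals lay above 0 for 3 of 7 and below it for 1 of 7, against 26.0% and 26.8% of all genes, or 52.8% together. That of Twist1 lay only just above 0, from 0.01.

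In the library labelled siDNMT1_OB, with OB as the base, 1 of 7 (Runx1) was higher by at least 2-fold, against 2.36% of all genes, and 0 were lower, against 1.37% (3.73% in either direction). The medians were 0.13 and 0.01. Counting intervals lay above 0 for 3 of 7 and below it for 0 of 7, against 27.6% and 23.6%, or 51.2% together. These directions carry the limit that Dnmt1 was not lower there.

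For OB induction with control siRNA, 1 of 7 (Runx1) was lower by at least 2-fold, against 7.1% of all genes, and 0 were higher, against 10.6% (17.7% in either direction). The call of Runx1 rests on the library labelled OB, and in the library labelled siDNMT1_OB Runx1 had 21.2 CPM beside 23.2 in control. The median was −0.35 for the factors and 0.01 for all genes. Counting intervals lay below 0 for 5 of 7 and above 0 for 0 of 7, whereas among all genes 37.3% lay below and 37.1% above, or 74.4% together. Among these factors, Twist1 was at the edge, with an interval that ended at −0.0002. For the library labelled siDNMT1_OB against siDNMT1, 0 of 7 passed 2-fold, against 6.83% higher, 2.71% lower and 9.54% in either direction. The medians were −0.26 and 0.001, and 5 of 7 intervals lay below 0 and 0 above, against 33.1% on each side (66.3% together). These comparisons each share a library with the comparisons before them, and the list is small, so nothing particular to it is read from these counts.

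**Figure D3:**
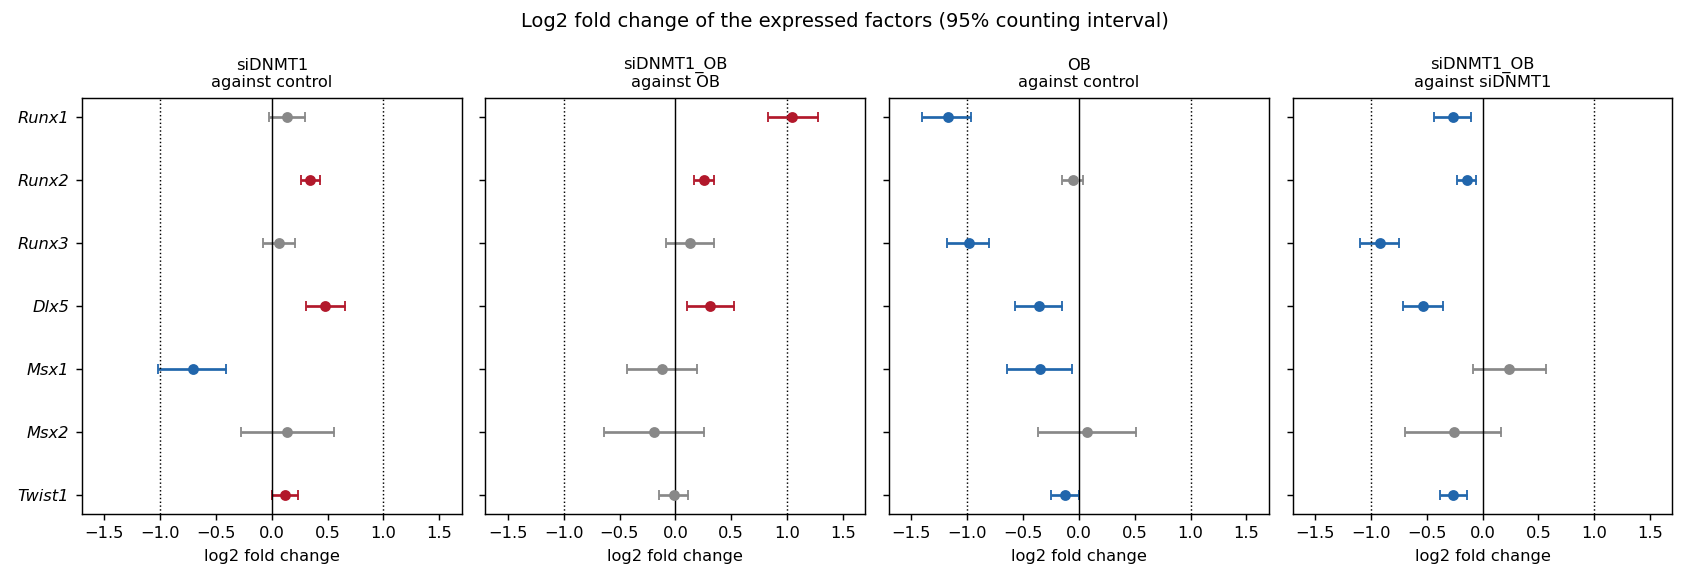
Log2 fold change (horizontal axes) of the 7 expressed factors in the 4 comparisons, with 95% counting intervals, red where the interval lies above 0, blue below and grey where it includes 0, and dotted lines at 2-fold. Runx1 passes the dotted line in both comparisons that contain OB, at −1.18 and 1.04.

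**Figure D4:**
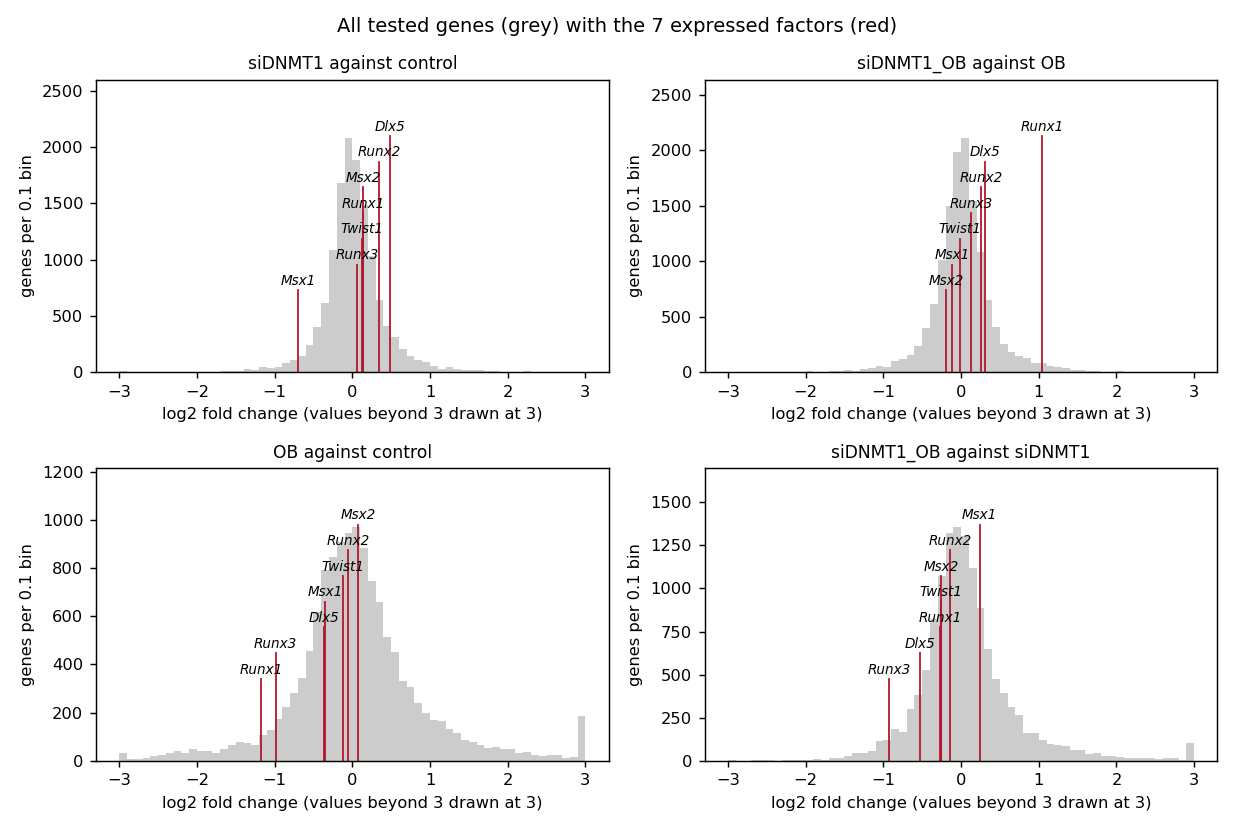
Number of tested genes per bin of 0.1 (vertical axes) by log2 fold change (horizontal axes) in the 4 comparisons, grey for all 13233 genes, with red lines for the 7 expressed factors (line height has no meaning, and values beyond 3 are drawn at 3). Msx1 lies in the left tail for siDNMT1 against control at −0.70, and Runx1 in the right tail for the library labelled siDNMT1_OB against OB at 1.04.

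The log2 fold change of the library labelled siDNMT1_OB against OB was then compared with that of siDNMT1 against control, as the difference of both, a ratio of ratios over all 4 counts with an exact conditional interval. It was 0.91 (0.64 to 1.19) for Runx1 and 0.59 (0.15 to 1.03) for Msx1. Of the genes tested, 95.9% lay below the value of Runx1 and 91.1% below that of Msx1. Over all genes tested the median difference was 0.004, with 3.27% at or above 1 and 2.95% at or below −1. For Runx2 (−0.09, −0.21 to 0.04), Runx3 (0.07, −0.19 to 0.33), Dlx5 (−0.17, −0.45 to 0.10), Msx2 (−0.33, −0.95 to 0.29) and Twist1 (−0.14, −0.31 to 0.04) the interval included 0. Dnmt1 itself had a difference of 1.13, since it was lower in siDNMT1 than in control but not in the library labelled siDNMT1_OB, and every value here is taken with the induced pair as labelled.

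Genes with the most similar pattern over the 4 libraries were sought for the 3 expressed factors of widest range, by the Euclidean distance of log2 CPM centred on each gene's mean, among 10827 genes with a mean of at least 5 CPM. Closest to Runx1 were Gcnt4 (distance 0.11; 349, 326, 121 and 298 counts), Mboat1 (0.12) and Dusp6 (0.15), a phosphatase that dampens ERK signals, with 1046, 1168, 420 and 907 counts. All 3 were lowest in OB, as Runx1 was. Closest to Runx3 were Pkp1 (0.06), Miip (0.07) and Tmem151a (0.08), and closest to Dlx5 were Maml1 (0.04), a coactivator of Notch, Pogk (0.07) and Zc3hav1 (0.07). Within a distance of 0.2 there were 5 genes for Runx1, 61 for Runx3 and 68 for Dlx5. With 4 libraries such likeness is a description only.

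Relatives of the factors were looked at for comparison. Of 9 relatives (other DLX, MSX, TWIST and SP genes) 7 passed the filter. For siDNMT1 against control 1 was higher by at least 2-fold (Dlx6) and 1 lower (Twist2), beside 1.97% and 1.37% of all genes, with a median of 0.32. Twist2, the paralog of Twist1, had 222, 91, 107 and 86 counts and a log2 fold change of −1.19 (−1.57 to −0.85) for siDNMT1 against control, whereas Twist1 stood at 0.12. Dlx6, the neighbour of Dlx5 in a shared gene pair, had 24, 49, 22 and 22 counts and 1.05 (0.38 to 1.88). Dlx1 (405, 491, 252 and 456 counts) and Dlx2 (558, 660, 257 and 382), which form another pair, were highest in siDNMT1 and lowest in OB, as was Dlx5. For Dlx1, however, the intervals of siDNMT1 (17.5 to 20.9 CPM) and the library labelled siDNMT1_OB (15.5 to 18.7) overlapped. Sp8, a relative of Sp7, had 37, 62, 3 and 16 counts and was lowest in OB. It was the only relative past 2-fold in the library labelled siDNMT1_OB against OB (higher) and in OB against control (lower), beside 2.36% and 7.1% of all genes, where the medians were 0.02 and −0.42, and against siDNMT1 the library labelled siDNMT1_OB was lower for Sp8 and Dlx6, beside 2.71%, with a median of −0.17.

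Partners and co-regulators were next, with 17 of 20 passing the filter. Past 2-fold were 0 of 17 for siDNMT1 against control (median 0.25), for the library labelled siDNMT1_OB against OB (0.02) and for the same library against siDNMT1 (−0.07), beside 3.34%, 3.73% and 9.54% of all genes in either direction. For OB against control 3 of 17 were higher and 0 lower by at least 2-fold, beside 10.6% and 7.1% of all genes, with a median of 0.12. Those past 2-fold were the zinc finger proteins Zfp423 (63, 114, 171 and 170 counts) and Zfp521 (948, 1407, 1586 and 2088), of which the latter can repress RUNX2 activity, and the corepressor Tle2 (4988, 5588, 9166 and 8111). Atf4, a partner of RUNX2 in late osteoblasts, was lowest in OB, with 7616, 8681, 3464 and 7194 counts. Cbfb, which every RUNX protein needs for firm DNA binding, had 3467, 3466, 1887 and 2898 counts. Its log2 fold change was −0.61 (−0.70 to −0.53) for OB against control and 0.38 (0.29 to 0.46) for the library labelled siDNMT1_OB against OB.

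Of 11 genes that respond early to BMP, or belong to that loop, 9 passed the filter. For siDNMT1 against control 2 were higher and 0 lower by at least 2-fold, beside 1.97% and 1.37% of all genes, with a median of 0.26, and 0 passed for the library labelled siDNMT1_OB against OB, beside 3.73% in either direction, where the median was 0.28. Those higher were Hey1 (37, 112, 16 and 38 counts, 1.63), a Notch and BMP target, and the pseudoreceptor Bambi (50, 109, 87 and 114, 1.17). Bmp4, a ligand upstream of the DLX and MSX genes, had 92.0, 166, 55.8 and 80.1 CPM and was highest in siDNMT1 and lowest in OB. For OB against control 1 was higher (Bambi) and 2 lower, the inhibitor Smad7 (835, 873, 275 and 513 counts) and Id4 (170, 146, 45 and 65), beside 10.6% and 7.1% of all genes, with a median of −0.72. Against siDNMT1 the library labelled siDNMT1_OB had 0 higher and 3 lower (Hey1, Id4 and Bmp4), beside 6.83% and 2.71%, with a median of −0.77.

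Targets of RUNX2 and SP7 and other osteoblast products formed the last list, of which 12 of 20 passed the filter. For siDNMT1 against control 0 were higher and 3 lower by at least 2-fold, beside 1.97% and 1.37% of all genes, with a median of 0.10. These were Phex (−1.05), Pth1r (−1.07, from 12 counts against 29) and Spp1, which encodes osteopontin (5270 counts against 14862, −1.41). In the library labelled siDNMT1_OB against OB, 1 was higher (Dmp1, 37 counts against 8, 1.76) and 1 lower (Phex, 168 against 687, −2.26), beside 2.36% and 1.37%, with a median of −0.11. For OB against control 5 were higher and 3 lower, beside 10.6% and 7.1% of all genes, with a median of 0.55. Those higher were Postn, Omd, Smpd3, Phex (687 counts against 256, 1.68) and Vdr (3006 against 1323). Those lower were Spp1 (−1.55), Dmp1 (−2.81) and Tnfrsf11b (1871 counts against 6154), which encodes osteoprotegerin, an inhibitor of osteoclast formation. For the library labelled siDNMT1_OB against siDNMT1 5 were higher and 1 lower (Tnfrsf11b, −1.46), beside 6.83% and 2.71%, with a median of 0.43. Postn, a matrix protein of periosteum, had 535, 946, 5848 and 4608 CPM and was the widest in range. Omd (12.5, 16.7, 66.2 and 39.4 CPM), a proteoglycan of bone, and Smpd3 (8.04, 11.5, 40.4 and 34.7), a sphingomyelinase needed for mineralization, were also higher in both induced libraries. Dmp1, an osteocyte protein, was lowest in OB (80, 62, 8 and 37 counts). Col1a1 stayed between 9106 and 10970 CPM. Ibsp, Mmp13, Bglap2, Tnfsf11 and Ifitm5 were below the filter, and Sost had 0 counts in every library.

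**Figure D5:**
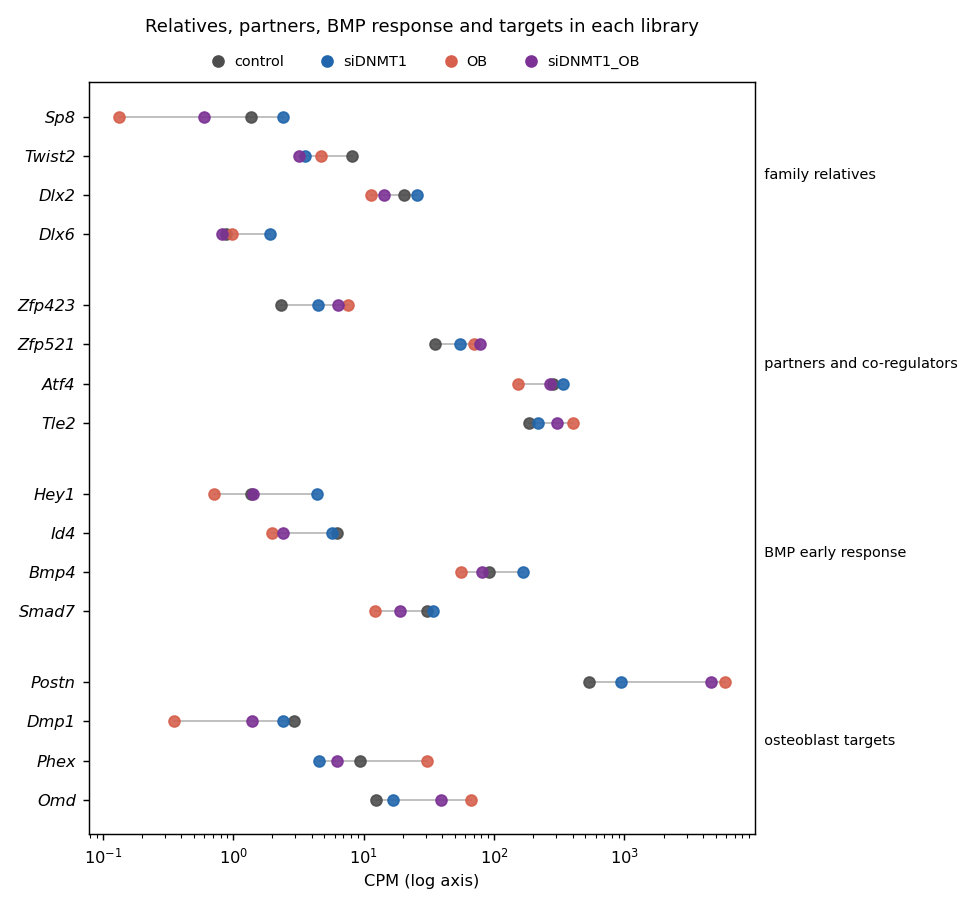
Level (horizontal axis, CPM, log axis) of the 4 genes of widest range in each of the lists of relatives, partners, BMP response and targets, 1 point per library, with a grey line from the lowest to the highest. OB holds the lowest point for Sp8, Dlx2, Atf4, Hey1, Id4, Bmp4, Smad7 and Dmp1, and the highest for Zfp423, Tle2, Postn, Phex and Omd.

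Markers of other lineages also differed between the libraries. The summed level of 8 adipocyte markers was 77.0, 96.6, 309 and 253 CPM, with Plin1 at 0 in all. Plin4 was its largest part (35.7, 51.5, 208 and 160 CPM), and Adipoq and Cfd had 2 counts or fewer in each library. Of the 5 that passed the filter, 4 were higher by at least 2-fold in OB than in control, beside 10.6% of all genes. Pparg (33.8, 33.9, 45.5 and 32.1 CPM) was not. The summed level of 8 chondrocyte markers was 494, 710, 439 and 790 CPM, with Acan at 0. Col2a1 was its largest part (390, 525, 207 and 516 CPM), while the other 3 markers that passed the filter were higher by at least 2-fold in OB than in control, beside 10.6% of all genes (Col11a2 with 598 counts against 252, Comp with 150 against 27 and Sox9 with 4429 against 2549), and the median log2 fold change of the 4 was 1.28. The 7 skeletal muscle markers summed to 6.78, 4.18, 24.6 and 15.3 CPM, with Myod1 and Myf5 at 0, and Actn3 alone passed the filter (5.60, 3.90, 23.1 and 13.8 CPM). Of 5 endothelial markers Tek alone passed the filter, with 51, 152, 63 and 203 counts, and the others had 8 counts or fewer in each library (sum 2.29 to 7.85 CPM). The 5 epithelial markers summed to at most 1.03 CPM, with Epcam and Cldn4 at 0. The part of a mixture of cells in the levels of the factors was not tested, and fewer cells of a type cannot be told apart from less RNA per cell in bulk samples.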

How the data were processed

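Poly(A) RNA of 4 cultures, 1 per group, was measured by paired-end RNA sequencing. The authors deposited raw counts per gene, made with Trimmomatic, HISAT2 and featureCounts per the labels (build mm10). Versions and use of strand are not given in the sources used here. The spans of the 9 factors were the same in GENCODE M21 (GRCm38). A mean of 1 CPM or more before scaling was required of a gene (13233 passed). TMM factors (0.991 to 1.01) came from these in edgeR 4.0.16 (R 4.3.3). Log2 fold changes used a prior count of 2. Intervals (95%) are exact (scipy 1.17.1). The scripts were tested on simulated counts. With 1 library per group no edgeR test was run.

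The members and lists were chosen with earlier results of these data known. Named beside the 9 factors and Dnmt1 were the 5 genes of widest range in each list, genes overlapping a factor, and the 3 genes closest in pattern to each of 3 factors. A gene that this rule also names and a blood marker are not reported here. Other list members past 2-fold, Cbfb, Col1a1 and low or marker genes were named after their values were seen. Alternatives were total count, upper quartile and DESeq2 1.42.0 scaling, a prior count of 0.5, no filter, a filter at 5 CPM and a threshold of 1.5-fold.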

Additional observations from a re-analysis of the deposited data

Results flagged for a closer look

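For Msx2 the log2 fold changes of siDNMT1 against control and of the library labelled siDNMT1_OB against OB had opposite signs, at 0.14 and −0.19, with a difference of −0.33. The same held for Twist1, with 0.12 and −0.01 and a difference of −0.14. Neither difference has a replicate check. The counting interval of the difference included 0 for Msx2 (−0.95 to 0.29) and for Twist1 (−0.31 to 0.04).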

How the results depend on the processing

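Under total count, upper quartile and DESeq2 scaling and a prior count of 0.5, all 28 log2 fold changes of the 7 expressed factors kept their sign, and Runx1 was past 2-fold in the same 2 comparisons (−1.18 to −1.13 for OB against control, 1.02 to 1.05 for the library labelled siDNMT1_OB against OB). With a mean CPM of at least 5 the 6 remaining factors gave the same counts. Without a filter, where scaling used all genes, 2 factors passed 2-fold for siDNMT1 against control (Dlx3 and Sp7), 2 for OB against control (Runx1 and Runx3) and 1 for the library labelled siDNMT1_OB against siDNMT1 (Dlx3). Among all genes, 5.78%, 11.2% and 7.93% passed in these comparisons. The calls of Sp7 and Dlx3 rest on 5 counts or fewer. At 1.5-fold the counts were 1 (Msx1), 2 (Runx1 and Runx3) and 1 (Runx3) of 7 in these comparisons. The shares of all genes past 1.5-fold were 10.9%, 34.4% and 23.0% in the same order. No paired analysis was possible because each group holds 1 library, and none could be left out for the same reason. Spread between dishes is not known, and at this depth no direction could be read for Sp7 or Dlx3.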

Other observations

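The antisense genes of the Runx2 locus had few counts, and 2 of them differed between siDNMT1 and control in opposite directions. Runx2os1 had 9 counts in siDNMT1 against 28 in control (log2 fold change −1.37, counting interval −2.82 to −0.43), and Runx2os2, inside the Runx2 span but with 0 exon bases in common, had 17 against 4 (1.72, 0.55 to 4.20). After induction both intervals included 0, with 15 against 20 and 7 against 4 counts in the library labelled siDNMT1_OB and OB. Runx2os3 had 0 counts in every library. Neither gene passed the expression filter, and the use of strand in counting was not stated.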
